A study of Mus musculus with 2 samples.

Results

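The 10 genes described here encode matricellular proteins (Postn, Thbs1, Sparc, Ccn1, Ccn2 and Tnc) and small leucine-rich proteoglycans (Bgn, Dcn, Prelp and Ogn). They were chosen by name, and each of the 10 has a row among the 12707 genes of the deposited table. RNA was sequenced from live CD45-negative cells sorted from Py8119 tumours, with 1 library from Mtdh wild type (WT) hosts and 1 library from Mtdh knock out (KO) hosts. The Py8119 line comes from a mammary tumour of an MMTV-PyMT mouse and has mesenchymal features. Its Mtdh status is wild type in both groups, so the groups are named here for the host, as the WT-host library and the KO-host library. The labels do not give the age, sex or strain of the hosts, how the knock out allele was made, or how many tumours went into a library, and the design text speaks of pair samples without naming a pairing. With 1 library per host there is no replicate error, and every difference below is a difference between this pair of libraries. Mtdh itself had 28376 and 23130 recovered reads in the WT-host and KO-host libraries, a ratio of 0.909 (95% counting interval 0.893 to 0.925). Since Mtdh is intact in the tumour cells, its level tests the label of the host no further than the RNA of host cells reaches.

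Matricellular proteins are secreted into the matrix but act mainly as signals rather than as fibres: they bind integrins, growth factors and proteases and change how cells attach and respond. Small leucine-rich proteoglycans have a core of leucine-rich repeats that binds collagen fibrils and growth factors of the TGF-beta family, and many carry glycosaminoglycan chains. In mammary tumours both groups are made by fibroblasts and pericytes of the host and, in tumour cells of mesenchymal character, by the tumour cells as well.

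Periostin and 3 of the 4 proteoglycans were lower in the KO-host library, by 2.33-fold to 4.45-fold in reads. Postn was 4.45-fold lower, Dcn 4.45-fold, Bgn 3.10-fold and Prelp 2.33-fold. The other 6 genes, Ccn1, Ccn2, Ogn, Sparc, Thbs1 and Tnc, differed by less than 2-fold, and 2 of them, Thbs1 and Tnc, were higher. On the deposited scale, log2(FPKM + 1), where FPKM is fragments per kilobase of genomic span per 1000000 reads, a gene was counted when its mean was 1 or more and its difference 1 or more. By that rule 3 of 9 measured members were lower (Postn, Bgn and Prelp) and 0 were higher. Over all 6057 measured genes 2.64% were lower and 2.31% higher. On the scale of recovered reads, with 2-fold as the cut among genes with 100 reads or more and a value above 0 in both libraries, 4 of 10 members were lower and 0 higher, against 11.4% lower and 8.47% higher of 10664 genes.

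Stretches before the start sites of 4 members are shown first, because Postn and Bgn are the 2 members with the largest differences on the deposited scale, and Ccn1 and Ogn are the 2 whose stretch holds the letters GGAATG. These letters are a known binding site of TEAD factors, the DNA-binding partners of YAP, whose known targets include the CCN genes. Each is the 250 bases before a RefSeq start site, from the promoter table of build GRCm38.p6, read 5′ to 3′ on the strand of the gene. Postn has 2 start sites in that table, and the downstream one is shown (chr3:54360857-54361106, plus strand). The Bgn stretch is chrX:73483351-73483600, plus strand, the Ccn1 stretch is chr3:145649986-145650235, minus strand, and the Ogn stretch is chr13:49607765-49608014, plus strand. Capitals mark GGAATG and the TATA box letters TATAAA on either strand, and in Ogn the TATAAA matches of both strands overlap.
Postn: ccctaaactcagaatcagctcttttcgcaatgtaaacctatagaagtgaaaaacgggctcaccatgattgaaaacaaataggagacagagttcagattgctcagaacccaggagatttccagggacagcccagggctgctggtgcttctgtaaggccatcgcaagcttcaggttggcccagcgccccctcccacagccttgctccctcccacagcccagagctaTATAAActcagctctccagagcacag
Bgn: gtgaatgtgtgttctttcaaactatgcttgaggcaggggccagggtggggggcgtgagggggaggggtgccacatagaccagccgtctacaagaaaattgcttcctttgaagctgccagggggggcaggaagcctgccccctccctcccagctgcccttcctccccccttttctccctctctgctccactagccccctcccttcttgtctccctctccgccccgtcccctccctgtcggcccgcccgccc
Ccn1: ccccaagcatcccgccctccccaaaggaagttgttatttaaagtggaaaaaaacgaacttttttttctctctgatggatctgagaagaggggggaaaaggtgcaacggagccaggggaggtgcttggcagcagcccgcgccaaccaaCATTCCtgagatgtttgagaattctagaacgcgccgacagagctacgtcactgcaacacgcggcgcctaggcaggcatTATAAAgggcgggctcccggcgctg
Ogn: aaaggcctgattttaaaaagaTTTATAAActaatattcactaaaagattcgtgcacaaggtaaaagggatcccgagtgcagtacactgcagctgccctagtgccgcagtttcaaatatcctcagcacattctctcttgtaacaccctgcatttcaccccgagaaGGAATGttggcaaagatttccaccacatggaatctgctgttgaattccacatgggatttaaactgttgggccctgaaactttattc

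RefSeq windows were found for 7 of the 10 members, 9 windows in all; Thbs1, Ccn2 and Dcn have none in the table. GGAATG occurred in the windows of Ccn1, 98 to 103 bases before the start, and of Ogn, 81 to 86 bases before it. It occurred in 12.6% of all 32851 windows of this length. TATAAA was found in the windows of Ccn1, Ogn, Postn and Tnc and in 12.4% of all windows. In Postn it lay 21 to 26 bases before the downstream start, and in Ccn1 20 to 25 bases before the start. It lay farther off in Ogn, where the overlapping matches were 222 to 227 and 224 to 229 bases before the start. In Tnc it was 121 to 126 bases before the upstream start and 200 to 205 before the downstream start. CAGACA, a SMAD site, was found in the windows of Sparc and Tnc and in 17.1% of all windows. The AP-1 site TGANTCA (in 6.75% of all windows) and the CArG box, the site of SRF (in 1.47%), had no match in the members' windows. The Bgn stretch holds none of the 5 motifs searched and is 64.4% G and C, against a median of 52.4% over all windows. These matches describe letters in a window, and the data hold no measurement of binding.

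Postn encodes periostin, which binds integrins and collagen I and is laid down by activated fibroblasts and by some tumour cells. It lies on chr3:54268530-54298458, plus strand (mm39, ENSMUSG00000027750). Its deposited log2(FPKM + 1) was 4.15 in the WT-host library and 2.25 in the KO-host library, a difference of -1.90. These correspond to FPKM 16.7 and 3.75, and to 13035 and 2625 recovered reads. The ratio of reads per 1000000 was 0.225, with a 95% counting interval of 0.215 to 0.234. Postn is far lower in the KO-host library, and its counting interval is narrow. Of the 6613 genes with 1000 reads or more over both libraries, Postn was among the 18 with the lowest ratios. In the WT-host library Postn had 10.7% of the reads of the 10 members, and in the other 3.02%.

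Bgn encodes biglycan, a proteoglycan with glycosaminoglycan chains that binds collagen and, when released from the matrix, toll-like receptors. It is on chrX:72527208-72539539, plus strand (mm39). Its log2(FPKM + 1) was 4.37 in the WT-host library and 2.88 in the other, a difference of -1.49. It had 6347 and 1837 reads, and the ratio was 0.323 (95% counting interval 0.306 to 0.340). On the deposited scale Bgn stood next to Postn in the size of its difference. In reads, 49 of the 6613 deeper genes, itself included, had a ratio as low or lower.

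Dcn encodes decorin, the closest relative of biglycan, which binds collagen fibrils and TGF-beta and restrains several receptor kinases. It is on chr10:97315471-97354005, plus strand (mm39). Dcn was low in both libraries, at log2(FPKM + 1) 0.83 in the WT-host library and 0.23 in the KO-host library, and so did not pass the filter on the mean. The reads were 784 and 158, which gives a ratio of 0.225 (95% counting interval 0.188 to 0.267). The interval of Dcn overlaps that of Postn, so the order of these 2 genes cannot be read from the counts. Its deposited difference, -0.60, understates the read ratio because 1 is added to FPKM values of 0.780 and 0.175.

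Prelp encodes a collagen-binding protein of the same family that also binds heparan sulphate and links basement membranes to the tissue beneath. It is on chr1:133838042-133849152, minus strand (mm39). Its log2(FPKM + 1) was 3.20 and 2.18 in the WT-host and KO-host libraries, a difference of -1.02. The reads were 2376 and 916, which gives a ratio of 0.430 (95% counting interval 0.398 to 0.464). Prelp lies just inside the size rule on the deposited scale, and Ccn1, at -0.66, is the nearest member outside it. Prelp falls outside the rule when the libraries are scaled by the median difference, by quantile normalization, or with 5 in place of 1 added before the log.

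Ogn encodes osteoglycin (mimecan), a proteoglycan of another class that takes part in collagen fibril formation, and it was the exception among the 4. It is on chr13:49761522-49777977, plus strand (mm39). Its log2(FPKM + 1) was 5.22 and 4.95, a difference of -0.27, from 15509 and 11476 reads. The ratio was 0.825 (95% counting interval 0.805 to 0.845), above those of Bgn, Dcn and Prelp, with no overlap of intervals. Ogn supplied 62.0% of the reads of the 4 proteoglycans in the WT-host library and 79.8% in the KO-host library. The sum of the 4 therefore hides the difference of the other 3: it was 959.6 and 615.3 reads per 1000000, a ratio of 0.641, whereas without Ogn it was 364.7 and 124.5, a ratio of 0.341 (95% counting interval 0.327 to 0.356).

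**Figure D1:**
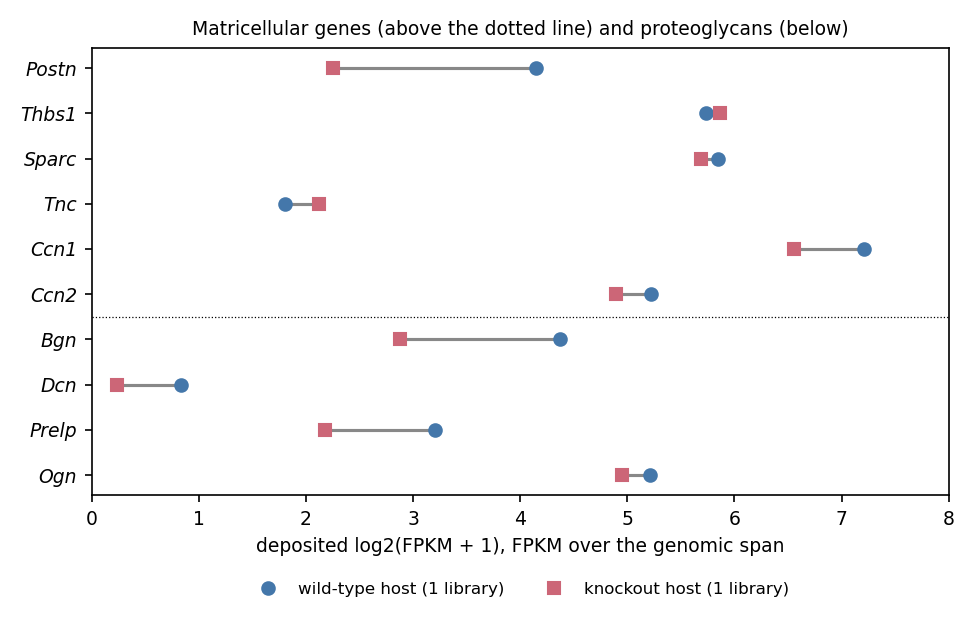
Deposited log2(FPKM + 1) of the 10 members in the WT-host library (circles) and the KO-host library (squares), matricellular genes above the dotted line and proteoglycans below it; the grey line joins the 2 libraries. Postn and Bgn have the longest lines, at -1.90 and -1.49, and Thbs1 and Tnc are the 2 genes whose square lies to the right.

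The CCN genes encode cysteine-rich secreted proteins that bind integrins and heparan sulphate and are quickly induced by growth factors, stretch and YAP. Ccn1 (CYR61; chr3:145352731-145355736, minus strand, mm39) had log2(FPKM + 1) 7.21 and 6.55 in the WT-host and KO-host libraries. Its reads were 11514 and 6526, which gives a ratio of 0.632 (95% counting interval 0.613 to 0.651). Ccn2 (CTGF; chr10:24471340-24474581, plus strand, mm39) had 5.22 and 4.89, from 3075 and 2174 reads, a ratio of 0.788 (95% counting interval 0.746 to 0.833). Both CCN members were lower by less than 2-fold, Ccn1 more so than Ccn2, since their intervals do not overlap. A ratio as low as that of Ccn1 was not rare: 9.78% of the 6613 genes with 1000 reads or more were as low or lower, and 24.9% were as low as Ccn2.

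Sparc encodes osteonectin, a calcium- and collagen-binding protein that regulates matrix assembly. It lies on chr11:55285326-55314009, minus strand (mm39). Its log2(FPKM + 1) was 5.85 in the WT-host library and 5.69 in the other, from 42242 and 33875 reads. The ratio, 0.894 (95% counting interval 0.881 to 0.907), was as low or lower in 39.2% of the deeper genes. Sparc was thus close to the middle of all genes, whose median log2 read ratio was -0.06 against -0.16 for Sparc.

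Thbs1 and Tnc were the 2 members with more reads per 1000000 in the KO-host library. Thbs1 encodes thrombospondin-1, which activates latent TGF-beta and inhibits vessel growth through CD36 and CD47. It is on chr2:117942357-117957614, plus strand (mm39), and had log2(FPKM + 1) 5.73 and 5.87, from 20786 and 20465 reads. Its ratio was 1.10 (95% counting interval 1.08 to 1.12). Tnc encodes tenascin-C, a large hexameric protein of wounds, stem cell niches and metastatic niches. It is on chr4:63878022-63965252, minus strand (mm39), and had log2(FPKM + 1) 1.80 and 2.12, from 5656 and 6816 reads, a ratio of 1.34 (95% counting interval 1.30 to 1.39). Both differences are beyond counting error but small: 962 of the 6613 deeper genes had a ratio above that of Tnc, and 2179 above that of Thbs1.

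**Figure D2:**
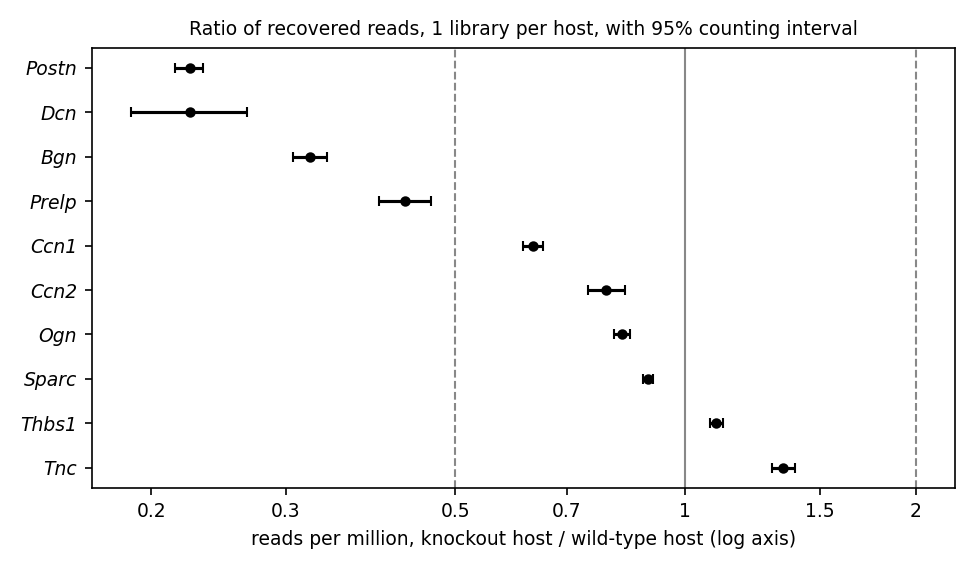
Ratio of reads per 1000000 in the KO-host library to that in the WT-host library for each member, on a log axis, with bars for the 95% counting interval; dashed lines mark 2-fold either way. Postn, Dcn, Bgn and Prelp lie left of the lower dashed line and Thbs1 and Tnc lie right of 1.

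The median difference over the 9 measured members was -0.33 on the deposited scale, beside -0.03 over the 6057 measured genes. On the read scale the median log2 ratio of the 10 members was -0.50, beside -0.06 over 10664 genes. Of the 10 members 8 were below 0, and of all genes with 100 reads or more 54.4% were below 0. The members differed among themselves: in order of their ratios, the intervals of Postn and Dcn overlapped, as did those of Ccn2 and Ogn, and the other 7 neighbouring pairs had intervals that did not overlap. By class, 1 of 6 matricellular genes and 3 of 4 proteoglycans were 2-fold lower in reads, beside 11.4% of the 10664 genes. The 6 matricellular genes summed to 3694 and 3100 reads per 1000000, a ratio of 0.839 (95% counting interval 0.831 to 0.847), beside 0.641 (0.628 to 0.655) for the 4 proteoglycans. Sparc alone gave 34.8% and 39.0% of the reads of the 10 members. Together the 10 members took 0.465% of the reads of the WT-host library and 0.372% of the other.

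**Figure D3:**
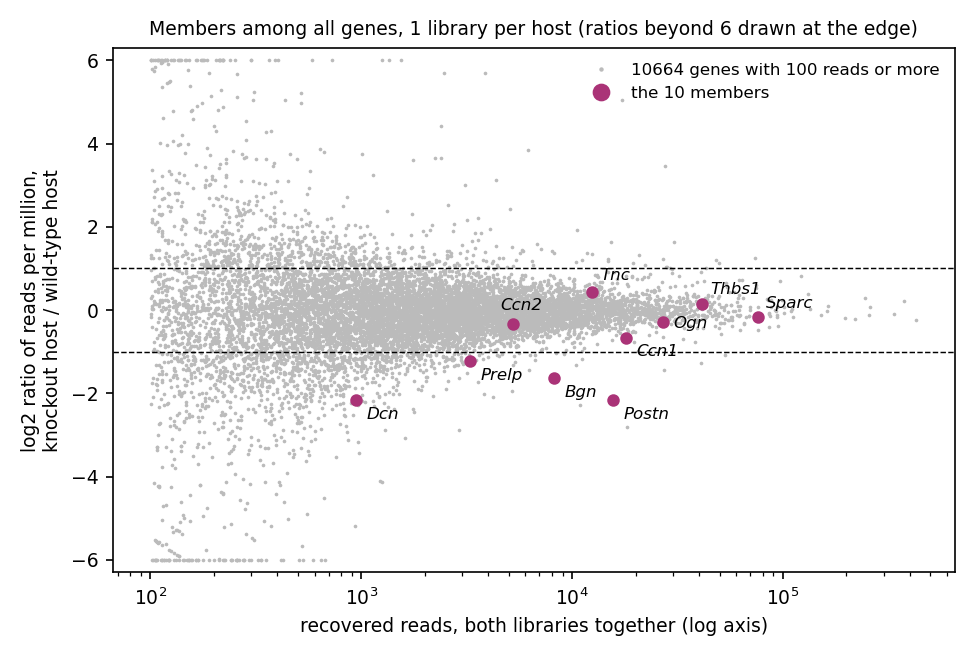
Log2 ratio of reads per 1000000 (KO-host over WT-host library) against the recovered reads of both libraries together, on a log axis, for 10664 genes with 100 reads or more (grey) and the 10 members (purple); dashed lines mark 2-fold, and genes beyond a log2 ratio of 6 either way are drawn at the edge. Postn, Bgn and Prelp lie below most genes of their depth, Dcn lies among the sparser genes that scatter widely, and the other 6 lie between the dashed lines.

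Levels can be set side by side between genes only per length of RNA, and the deposited FPKM uses the genomic span, introns included. Exons fill 8.91% of the span of Tnc and 88.2% of that of Ccn2. The exon length used below is the union of all annotated exons of a gene. Reads from introns could not be told apart from reads of exons, so the order between genes is approximate. When reads per 1000000 were divided by the exon length of GENCODE M21, Sparc was the highest of the 10 in both libraries, at 427.8 and 382.5 reads per 1000000 per kilobase of exon. Among 12690 genes with an exon length it ranked 41 and 51. Ogn came next, at 231.8 and 191.3 (ranks 95 and 131). Ccn1 was at 218.8 and 138.2 and Thbs1 at 131.3 and 144.1, so Thbs1 was above Ccn1 in the KO-host library only.

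The middle of the order changed most. On the same scale of reads per 1000000 per kilobase of exon, Postn was at 57.5 in the WT-host library and 12.9 in the other, and Bgn at 39.9 and 12.9. Ccn2 was at 41.2 and 32.5, and Tnc at 27.9 and 37.5. Tnc was thus below Postn, Ccn2 and Bgn in the WT-host library and above all 3 in the other. Prelp was at 25.2 and 10.8. Dcn was the lowest in both, at 5.15 and 1.16, ranks 6274 and 9638.

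**Figure D4:**
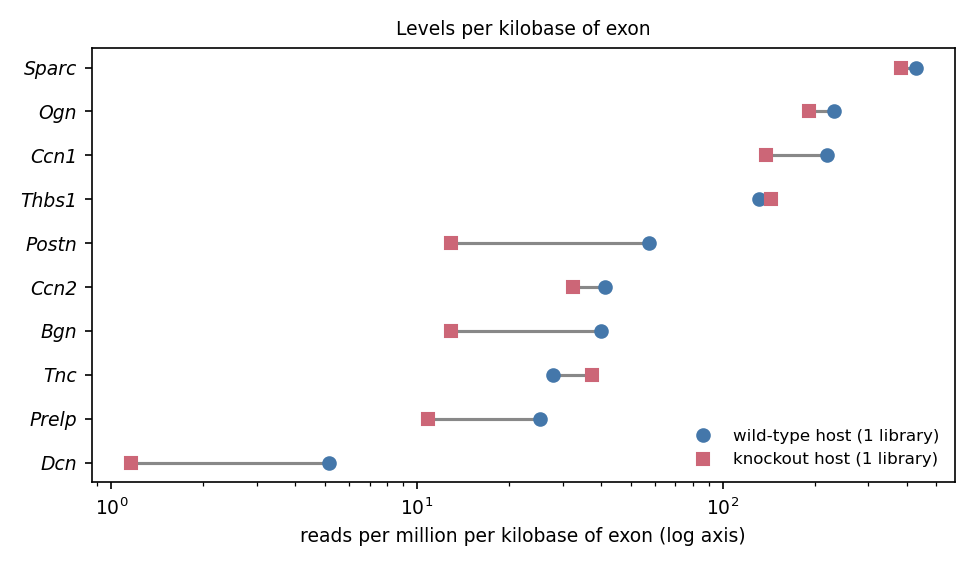
Reads per 1000000 per kilobase of exon for each member, on a log axis, in the WT-host library (circles) and the KO-host library (squares), ordered by the WT-host library. Sparc leads in both libraries, Dcn is lowest in both, and Postn moves from 57.5 to 12.9.

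The relatives of the members that lie outside the 10 differed in both directions, and some differed by more than any member did. Of 31 other matricellular genes listed from general knowledge, 24 are in the table and 7 were measured on the deposited scale, with 1 lower and 0 higher and a median of -0.16. The 1 lower gene was Mgp, matrix Gla protein, an inhibitor of calcification, at 473 and 153 reads, 2.77-fold lower (95% counting interval 2.31 to 3.35). Spp1, which encodes osteopontin, had 25088 and 13176 reads, a ratio of 0.586, and Fbln2, fibulin-2, had 19651 and 15596, a ratio of 0.885. Some close relatives of the members were chosen after their values were seen: Thbs3 had a ratio of 0.917, Ccn4 1.25 and Ccn5 0.957. Other close relatives, with fewer than 100 reads and also named after their values were seen, differed more. Thbs2 had 64 and 1 reads in the WT-host and KO-host libraries, Tgfbi 33 and 8, and Sparcl1 3 and 51. With reads, 17 of the 24 had 100 or more, of which 3 were 2-fold lower (Mgp, Igfbp7 and Cilp) and 3 were 2-fold higher (Pdpn, Matn4 and Lgals3). Apart from Mgp these were chosen after their values were seen. Igfbp7 had 331 and 30 reads, 9.90-fold lower (95% counting interval 6.80 to 14.9). Pdpn had 5 and 296 reads, but it encodes podoplanin, a protein of the cell membrane and not a secreted matricellular protein. Matn4 had 22 and 119 reads, and Lgals3 had 81 and 169.

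Of 14 other small leucine-rich proteoglycans, 8 are in the table and 3 were measured, with 0 past the rule and a median of -0.05. Podnl1, podocan-like 1, had 807 and 964 reads, and Tsku, tsukushi, which binds growth factors, had 940 and 692. On the read scale 1 of 5 was 2-fold lower, and it was Aspn, asporin, a class I relative of Bgn and Dcn. Aspn, chosen after its value was seen, had 210 and 55 reads, a ratio of 0.292 (95% counting interval 0.213 to 0.395). Omd, osteomodulin, also chosen after its value was seen, had 686 and 584 reads, a ratio of 0.949. Fmod, fibromodulin, and Optc, opticin, also named after their values were seen, had 38 and 52 reads in the WT-host library and were listed at 0 in the other, whereas Chadl, chondroadherin-like, was listed at 0 in the WT-host library and had 84 reads in the other. Prelp and Omd, both of class II, thus differed from each other, at ratios of 0.430 and 0.949.

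Collagens and fibre partners, which the proteoglycans and periostin bind, were lower more often. Among the 17 listed genes that have a row, 10 were measured, with 4 lower, 0 higher and a median of -0.36. Over all measured genes 2.64% were lower. The list also holds Tgfb1, which encodes a growth factor and not a fibre protein, and which stands in the TGF-beta list too. Its ratio was 1.54, and it was named after its value was seen. Col1a1 had 16111 and 2059 reads, a ratio of 0.142, Col6a2 a ratio of 0.369, Col3a1 0.417 and Col6a1 0.472. Fn1, fibronectin, the partner with the most reads, had 123660 and 95174 and a ratio of 0.858. On the read scale 9 of 17 were 2-fold lower, beside 11.4% of the 10664 genes. The median log2 ratio was -1.08, the lowest of the 7 related lists.

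Cell-surface partners of the members had 0 of 18 measured genes past the rule and a median of 0.08. On the read scale Itga6 was 2-fold higher and Itgb3 and Itga8 2-fold lower of 24 genes, named after their values were seen. Itgb1, the integrin beta-1 chain, was at a log2 difference of 0.03, and Sdc4, syndecan-4, a heparan sulphate receptor, at 0.29. Cd36 and Cd47, the thrombospondin receptors, had ratios of 1.03 and 1.07, and Itgav, a chain of the periostin receptors, 0.888; these 3 were chosen after their values were seen. The regulators and targets of YAP, TGF-beta and SRF had 0 of 21 measured genes past the rule and a median of -0.06. On the read scale 1 of 27 was 2-fold lower, Acta2, and Tead3, left out of the 27 because of its value of 0, had 180 reads in the WT-host library and was listed at 0 in the other. Twist1, a mesenchymal transcription factor, was at a log2 difference of -0.12. The YAP targets Ankrd1 and Amotl2, chosen after their values were seen, had ratios of 0.740 and 0.911, beside 0.632 for Ccn1 and 0.788 for Ccn2. Ajuba of the same list, also chosen after its value was seen, had a ratio of 1.24. Of the 27 genes 12 had a log2 ratio above 0 and 15 below it.

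Genes that build the glycosaminoglycan chains had 0 of 17 measured genes past the rule and a median of -0.20. Chst14, which sulphates dermatan, was 2-fold lower in reads and Pxylp1 2-fold higher, of 24 genes, named after their values were seen. Slc35b2, the carrier that brings the sulphate donor into the Golgi, was at -0.46 and Chpf, a chondroitin polymerizing factor, at 0.01. Proteases that cut these proteins had 1 of 9 lower, 0 higher and a median of -0.12. The 1 lower gene was Mmp2, gelatinase A, at 2028 and 563 reads, a ratio of 0.309. On the read scale 4 of 13 were 2-fold lower: Mmp2 and, named after their values were seen, Adamts5, Adamts9 and Mmp12. Mmp3, left out of the 13 because of its value of 0, had 109 reads in the WT-host library and was listed at 0 in the other, and Ctsk was listed at 0 in the WT-host library and had 70 reads in the other. Mmp3, Ctsk, Tead3 and Chadl were also named after their values were seen. Mmp14, the membrane-bound activator of Mmp2, was at a log2 difference of 0.38 and Ctsb, cathepsin B, at 0.14.

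**Figure D5:**
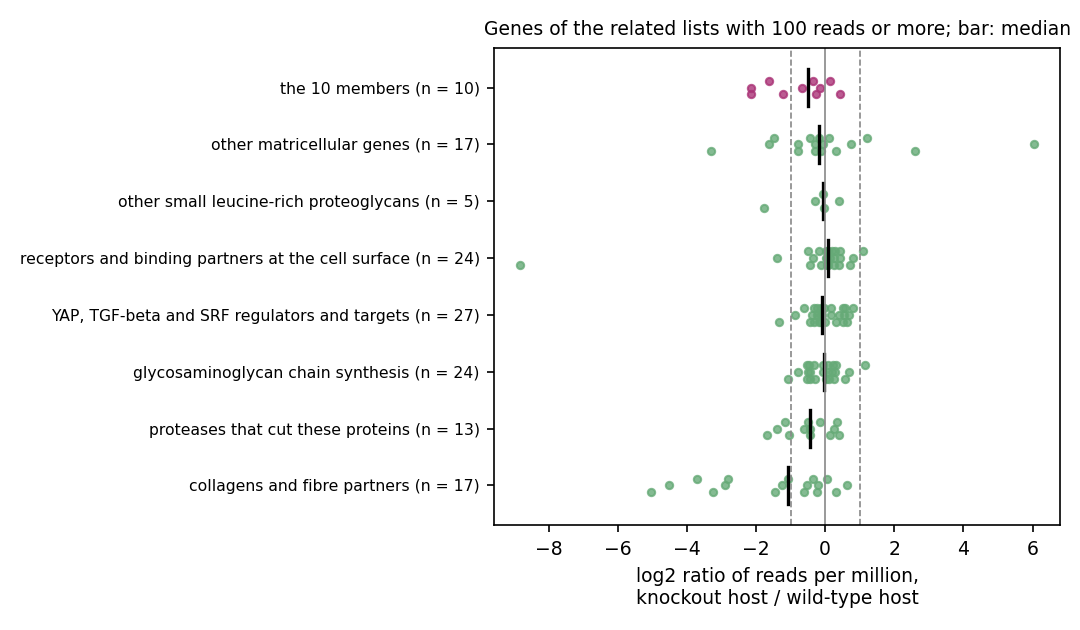
Log2 ratio of reads per 1000000 (KO-host over WT-host library) of each gene with 100 reads or more, for the 10 members (purple) and 7 related lists (green), with a bar at each median and dashed lines at 2-fold. The collagen list has the lowest median, at -1.08, and the members come next, at -0.50; the median of the receptor list is above 0.

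The sorted cells may hold host stroma beside tumour cells, and in a bulk library fewer cells of a type and less RNA per cell cannot be told apart. The summed level of pericyte and smooth muscle markers was lower beside Postn, Bgn, Dcn and Prelp, with markers in both directions. Of 11 markers 7 are in the table, and Rgs5, Kcnj8, Myh11 and Des have no row. The sum of the 7 was 425.4 and 99.6 reads per 1000000 in the WT-host and KO-host libraries. Pdgfrb, the main receptor of pericytes, made most of this sum and had a ratio of 0.205, and without it the sum was 72.2 and 27.3. Acta2, smooth muscle actin, had 697 and 249 reads, and Cspg4 had 190 reads in the WT-host library and was listed at 0 in the other. Of the other 4 markers with 100 reads or more, Pdgfrb, Notch3 and Acta2 were 2-fold lower and Gja4, at 1 and 127 reads, was higher. Abcc9 had 1 and 55.7 reads, so the list did not differ in 1 direction. Notch3, Acta2, Gja4 and Abcc9 were named after their values were seen.

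Fibroblast markers, 9 of 12 in the table, summed to 1198 and 1055 reads per 1000000, and of the 6 with 100 reads or more Dpt was 2-fold lower and C3 2-fold higher. Pdgfra, a receptor of many fibroblasts, had a ratio of 0.966. Cxcl12 was at a log2 difference of 0.08 and Gsn at -0.43. C3, Pdgfra, Dpt, Pi16, Fap and Thy1 were named after their values were seen, and the last 4 had 322 and 44, 37.8 and 1, 91 and 1, and 45 and 3 reads. Sums of the mesenchymal list that marks the tumour line were 4426 and 4036 reads per 1000000, with 0 of 9 past the rule. On the deposited scale Vim, vimentin, was at a difference of -0.12 and S100a4 at -0.08. The part of stromal or tumour cells in the differences of Postn, Bgn, Dcn and Prelp was not tested.

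The remaining marker lists summed as follows, in reads per 1000000, in the WT-host library and then the other. Endothelial markers (5 of 11 in the table) were at 24.1 and 17.0, and without Plvap at 10.7 and 14.5, higher in the KO-host library. Leukocyte markers (9 of 10) were at 23.4 and 25.5, and macrophage markers (9 of 9) at 171.5 and 213.3, and without Lyz2 at 37.1 and 64.9. Platelets store thrombospondin-1, and their markers (4 of 7) were at 8.74 and 3.58, and without Gp1bb at 3.87 and 2.82. Of these markers 1 had 100 reads or more. Mammary epithelial markers (7 of 9) were at 203.8 and 318.8, and without Krt8 at 82.1 and 145.5. All 6 with 100 reads or more were higher in the KO-host library, 3 of them by 2-fold or more. Elf5 had 45 reads in the WT-host library and was listed at 0 in the other. Schwann cell markers (5 of 6) were at 75.5 and 38.1, where the sum without Pmp22 was 2.72 and 5.73, higher in the KO-host library. Cartilage and bone markers (4 of 7) were at 1073 and 2337, and without Sox9 at 173.2 and 180.0. Adipocyte markers (2 of 5) were at 0.194 and 0.900, and 0 of 5 skeletal muscle markers have a row.

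Depth was close in the pair, with 26069359 recovered reads in the WT-host library and 23381815 in the other. Among 4200 genes with 100 to 1000 reads over both libraries, 7.43% had 5 reads or fewer in 1 of them, whereas of 6613 genes with more reads this held for 2. Every member had at least 158 reads in each library, and Dcn is the 1 member in the sparser range.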

How the data were processed

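Live CD45-negative cells of Py8119 tumours gave 1 library per host genotype. The labels' protocols name removal of ribosomal RNA and the PrepX chemistry, and STAR 2.7.8a, Partek and mm39 stand in the submitters' processing notes; the annotation release is not given in the sources used here, nor is strand handling or the treatment of shared reads. The authors deposited log2 values of FPKM + 1. FPKM times the span in kilobases summed to 1000000 in each library, so the authors' FPKM is over the genomic span. The step between low values gave the reads of each library, and 84.8% and 83.4% of values under 1000 reads were whole within 0.1 read. Recovery was tested on simulated libraries of whole reads only, so that test does not cover the values that were not whole. Intervals are exact conditional binomial (Clopper-Pearson) at 95% and cover counting error only, since PCR copies were not told apart. Ends of genes are printed as the deposited stop minus 1, which makes the span equal the deposited length. Exon lengths and RefSeq windows are of GRCm38 and no coordinates were mixed. The members and lists were chosen with earlier results of these data known. Named genes are the members, up to 4 genes of each list past the size rule and its 2 highest means, and markers listed at 0; a gene that this rule takes is not reported here. Alternatives varied the added value, filter, scaling, size cut and length. Python 3.11.15, NumPy 2.4.6, pandas 2.3.3 and SciPy 1.17.1 were used.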

Additional observations from a re-analysis of the deposited data

How the results depend on the processing

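No paired analysis was possible because each host has 1 library. The number of members lower in the KO-host library was 3, and it ranged from 2 to 4 over the 10 alternatives. The number higher was 0 in each. The share of all genes counted moved with the setting as well. It was lowest with 5 added before the log, at 0.495% lower and 0.677% higher, where 2 members were lower. On the read scale with 100 reads or more it was highest, at 11.4% lower and 8.47% higher, where 4 members were lower. Postn and Bgn were counted as lower in every setting run. Prelp was not with 5 added before the log, with a mean of 3 or more, under median scaling or under quantile normalization, and Dcn was counted on the read scale and per kilobase of exon. The median of the members, -0.33, was -0.47 without the filter on low values, -0.50 on the read scale with 100 reads or more, and -0.50 per kilobase of exon, where Dcn enters. The range over all settings was -2.15 to -1.31 for Postn, -1.63 to -1.12 for Bgn and -0.80 to -0.63 for Ccn1, and no member changed sign. Settings with 1000 reads or more and with exon length were chosen after seeing the data. Replicate error cannot be estimated, and the counting intervals do not hold the variation between tumours.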
